A study of Mus musculus with 15 samples.

Results

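Hox genes encode homeodomain transcription factors that lie in 4 clusters, Hoxa, Hoxb, Hoxc and Hoxd, and they were followed here in the first branchial arch of the mouse embryo. All probe sets that carried exactly 1 gene symbol of the form Hoxa, Hoxb, Hoxc or Hoxd plus a number were taken, with no filter on dim probe sets. This gave 48 of the 45101 probe sets on the array, and they measured 33 of the 39 Hox genes in RefSeq, among 18193 genes named in all.

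The first arch is the swelling that forms the jaws, its maxillary branch the upper and its mandibular branch the lower jaw. RNA of the arch at E10.5, in midgestation, was measured on 15 Affymetrix arrays in 5 groups of 3, which were wild-type (WT) mandibular, Dlx5/6 mutant mandibular, WT maxillary set 1, WT maxillary set 2 and KO maxillary. The labels wrote the WT maxillary groups as WT_MXA and WT_MXA2 without saying how they differed, and wrote the last group as KO_MXA. They gave neither the gene lost in the KO embryos nor strain, allele or sex. A shared plan listed dlx2, dlx1/2 and Dlx5/6 mutants, and foresaw pooling arches for each experiment. Whether arrays of a group stand for separate embryos or for pools was not labelled, and the p-values below cover only the spread among these arrays, which may be technical.

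Hox proteins give cells their position along the head-to-tail axis, and along each cluster the gene order follows the order of expression in the embryo. Neural crest cells that fill the first arch come from the midbrain and anterior hindbrain and are known as Hox-negative, whereas crest of the second and more posterior arches carries Hox genes. Hoxa2 sets that boundary, and second arch crest that lacks it forms first arch skeleton instead. Hox proteins bind DNA with cofactors of the Pbx, Meis and Pknox families, Polycomb complexes keep the clusters silent, and retinoic acid and Cdx factors switch them on.

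All values below are deposited signals (1 scaled, linear intensity value per probe set and array) unless called log2 changes. The mean of each array's signals, without the lowest and highest 2%, was 150.0, and the median signal ran from 26.6 to 33.4. The signal of Dlx5 was 10.9 ± 2.97 in the Dlx5/6 mutant and 727 ± 40.5 in WT mandibular (SD, n = 3), and that of Dlx6 was 3.32 ± 1.52 and 249.6 ± 51.3, which did not go against the labels. The place of these probes in the deleted genes is not known here. The dap spike-in control split the arrays into array sets, at 423 to 507 on 9 arrays (the mandibular groups and set 1) and at 3612 to 3774 on 6 arrays (set 2 and KO). The mandibular branch was therefore compared with set 1 and the KO with set 2. Of 11 crest mesenchyme markers, 10 were above background in each group but KO, where 9 were. Of all non-control probe sets, 45.2% to 49.9% were above background by group. Dlx2 had a mean of 3.36 ± 0.180 in KO and of 422 ± 20.1 in set 2 (SD, n = 3), at least 14.1-fold lower in KO by the background limit defined below, and Barx1 and Dlx1 were lower by log2 changes of -2.61 and -1.62 (adjusted p 4.9e-13 and 7.6e-12 from limma).

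Because detection calls were not used here, the background of each array was taken from 147 probe sets of 132 genes in families that arch tissue is not known to use. These were olfactory, vomeronasal and bitter taste receptors, keratin-associated proteins and beta defensins. The 95th percentile of their signals was the background limit of that array, and it ran from 19.1 to 31.5. A probe set counted as above background in a group only if it passed the limit on all 3 arrays of the group. Signals of different probe sets depend on their own probes, so levels are compared between groups within a probe set.

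The promoter sequences of Hoxa2 and Hoxa5 are shown because Hoxa2 marks the boundary of the Hox-negative arch and Hoxa5 had the only Hox probe set above background on all 15 arrays. Both are the 250 bases before the gene's start from RefSeq (build GRCm38.p6), written 5′ to 3′ on the gene's own strand, with CG dinucleotides, the sites of DNA methylation, in capitals. The Hoxa2 stretch lies at chr6:52164832-52165081 and the Hoxa5 stretch at chr6:52204588-52204837, both on the minus strand.
Hoxa2: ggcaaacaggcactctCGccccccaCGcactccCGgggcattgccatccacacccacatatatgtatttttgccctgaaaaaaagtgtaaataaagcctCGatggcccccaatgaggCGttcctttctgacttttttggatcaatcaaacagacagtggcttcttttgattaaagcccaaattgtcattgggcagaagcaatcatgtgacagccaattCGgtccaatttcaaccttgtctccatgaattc
Hoxa5: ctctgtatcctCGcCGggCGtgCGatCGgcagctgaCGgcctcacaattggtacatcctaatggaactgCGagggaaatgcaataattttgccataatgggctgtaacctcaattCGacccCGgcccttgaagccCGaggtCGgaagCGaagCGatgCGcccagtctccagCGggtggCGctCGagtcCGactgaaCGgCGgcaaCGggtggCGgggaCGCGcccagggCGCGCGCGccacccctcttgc
The Hoxa2 stretch held 6 CG dinucleotides, 0.47 of the number its base composition would give, and the Hoxa5 stretch held 28, or 1.11 of that number. The Hoxa2 stretch also held TGATNNAT, a motif of Hox proteins with Pbx, searched on both strands. RefSeq gave promoters for 19 of the 33 measured Hox genes, 21 in all. Their median GC content was 59.2%, against 52.4% over 32851 promoters of the same length. Their median CG count was 13.0 against 6.00, and 11 of 21 (52.4%) passed an observed-to-expected CG ratio of 0.6, against 34.0% of all promoters. TGATNNAT was in 3 Hox promoters (14.3%) against 7.68% of all, and TATAAA, the TATA box sequence, on either strand in 2 (9.52%) against 12.4%. A match here is a run of letters and not a bound site.

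Hox signal was low throughout the first arch. Only Hoxa5, Hoxb2 and Hoxc6 were above background in any group, 3 of 33 genes (9.09%), while 4 of the 132 silent-family genes (3.03%) and 62.6% of all 18193 named genes passed the same rule. By probe sets these were 3 of 48 (6.25%), beside a background of 2.72% of the silent-family probe sets and 54.2% of all 45037 non-control probe sets. Over the 720 single values, 59 (8.19%) lay above their array's limit, against 5.44% in the silent families and 54.5% over all probe sets. The median Hox signal was 5.89 and that of the silent families 4.30. Since the limit was set on the silent families themselves, their share is fixed near its percentile.

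The other 30 genes, with 45 of the 48 probe sets counting the further probe sets of Hoxa5 and Hoxc6, were in no group above background. The median signals of these 45 probe sets ran from 0.872 to 22.9, and their highest single value was 62.4. There were 35 probe sets that passed the limit on 0 of 15 arrays, 8 that passed on 1 to 3 arrays and 5 that passed on 4 or more. The signals below the limit are bounds and do not show that the RNA was absent. In bulk tissue, fewer cells of a type and less RNA per cell cannot be told apart.

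**Figure D1:**
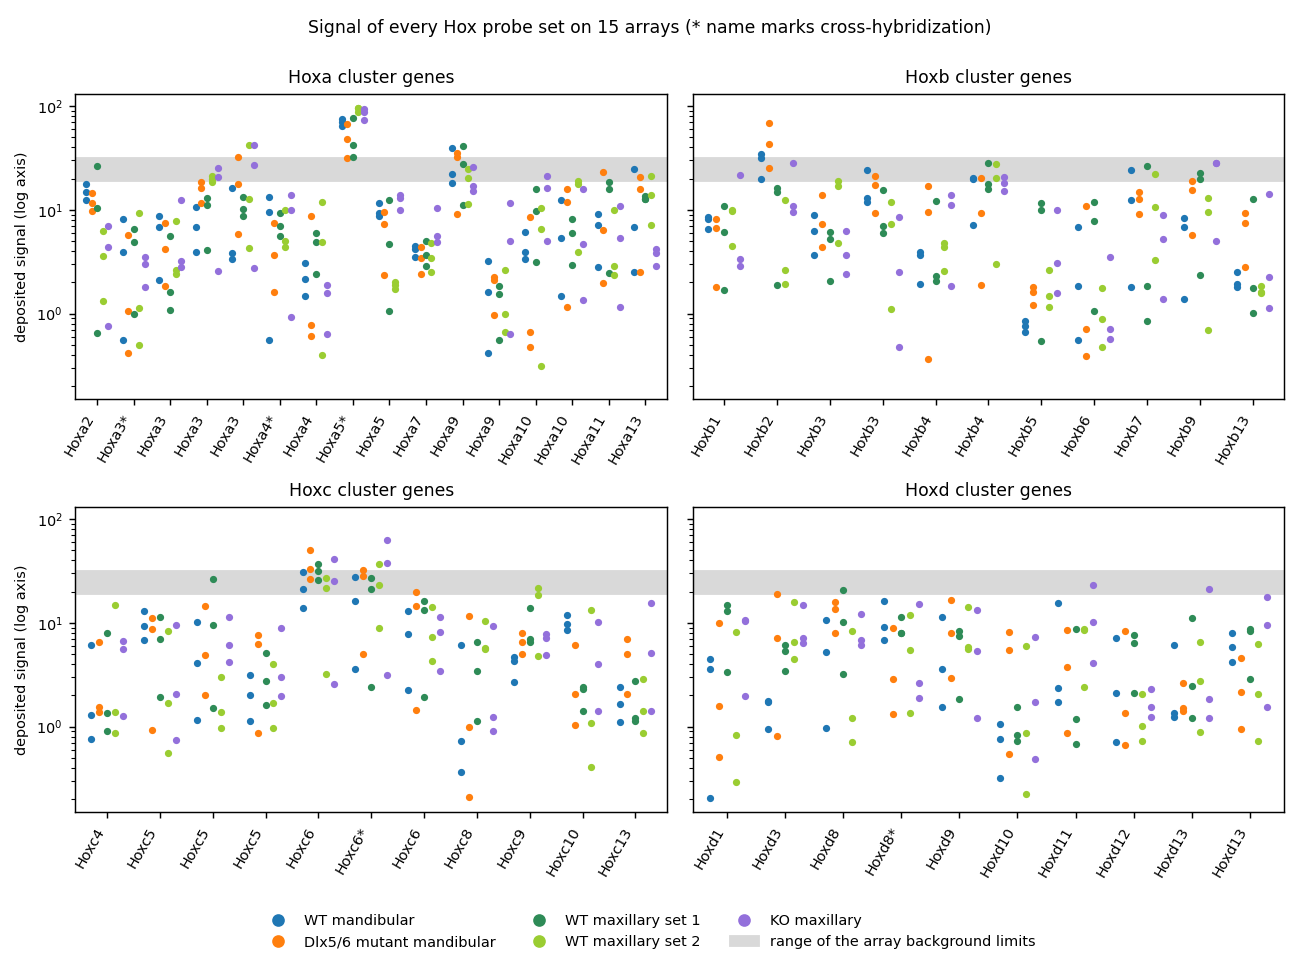
Each point is the deposited signal (log axis) of 1 of the 48 Hox probe sets on 1 of 15 arrays, coloured by group and arranged along each cluster, and the grey band spans the array background limits from 19.1 to 31.5. Most points lie under the band, and only the cross-hybridizing Hoxa5 probe set lies above its limits on all 15 arrays.

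By position in the clusters, the 3 genes above background were anterior or central, with Hoxa5 among them only through a cross-hybridizing probe set. Of the anterior paralogs 1 to 3, the Hox genes of the hindbrain and upper neck, 1 of 7 genes passed. Of the central paralogs 4 to 8, used in the neck and thorax, 2 of 12 passed. Of the posterior paralogs 9 to 13, used in the lower trunk, tail and limbs, 0 of 14 passed. These counts were not tested against each other, and stand beside 3.03% of silent-family genes and 62.6% of all named genes. They also depend on the limit. With the 90th percentile of the silent families, the anterior gene Hoxa3 and the posterior gene Hoxa9 passed as well. Hoxa9 also passed where at least 2 of 3 arrays were enough.

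By group, 2 of 48 Hox probe sets were above background in WT mandibular (4.17%), 3 in the Dlx5/6 mutant (6.25%), 2 in set 1 (4.17%) and 1 each in set 2 and KO (2.08%). The silent families gave 2 of 147 (1.36%) in WT mandibular, 0 in the mutant, 2 in set 1, 2 in set 2 and 3 (2.04%) in KO. Over all non-control probe sets the shares were 49.9%, 48.1%, 48.5%, 47.9% and 45.2% in the same order. The limits were higher on the KO arrays, at 28.8 to 31.5, than on the other arrays, at 19.1 to 27.9, so a Hox gene needed more signal to pass there.

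Hoxa2, the gene that gives second arch crest its identity, was above background on 0 of 15 arrays. Its signals were 12.5, 14.7 and 17.6 in WT mandibular, 11.7, 14.6 and 9.70 in the Dlx5/6 mutant, and between 0.657 and 26.4 in set 1, with a mean of 12.5 ± 13.0 (SD, n = 3). They were 3.59, 6.32 and 1.33 in set 2 and 0.757, 7.01 and 4.40 in KO. The groups of each comparison overlapped, and the highest value, on 1 array of set 1, lay just under that array's limit of 26.7. The log2 change on the scale log2(signal + 32) was 0.17 between WT mandibular and set 1 (95% interval -0.15 to 0.50) and -0.13 between the mutant and WT mandibular (-0.45 to 0.20). It was -0.01 between KO and set 2 (-0.33 to 0.31). No Hoxa2 difference passed the limma test in these comparisons.

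Hoxb2, a gene of the hindbrain and second arch, was above background in both mandibular groups and in no maxillary group. Its signals were 19.9, 31.8 and 34.4 in WT mandibular and 42.7, 25.5 and 69.4 in the Dlx5/6 mutant. They were 16.2, 1.87 and 14.8 in set 1, 12.5, 1.94 and 2.64 in set 2, and 9.43, 28.4 and 10.8 in KO. All 6 mandibular arrays passed their limits, by as little as 19.9 against 19.1, and all 9 maxillary arrays stayed under theirs. KO replicate 2, at 28.4 under a limit of 31.5, had more signal than WT mandibular replicate 1 and mutant replicate 2. With the 99th percentile of the silent families or the array median as limit, neither Hoxb2 nor Hoxc6 passed in any group, and Hoxa5 alone remained of the 33 genes. The means were 28.7 ± 7.72 in WT mandibular, 45.9 ± 22.1 in the mutant, 11.0 ± 7.91 in set 1, 5.70 ± 5.92 in set 2 and 16.2 ± 10.6 in KO (SD, n = 3).

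With the maxillary signals taken at no less than their limits (the 95th percentile), Hoxb2 was at least 1.21-fold higher in WT mandibular than in set 1, and at least 1.84-fold higher in the mutant than in set 1. Against KO it was at least 1.41-fold higher in the mutant, and no higher bound held for WT mandibular. The fitted log2 difference between WT mandibular and set 1 was 0.54 ± 0.21 (SE; 95% interval 0.10 to 0.99), and these arrays did not overlap. It did not pass the test, at an adjusted p of 0.329 from limma with Benjamini-Hochberg adjustment over all non-control probe sets. Against set 2, on the other array set, the difference was 0.72 with an adjusted p of 0.0484 from limma. With set 2 as control, 1 of 48 Hox probe sets was called beside 2775 of all 45037 probe sets. Hoxb2 differed by 0.30 (-0.14 to 0.75) between mutant and WT mandibular and by 0.30 (-0.14 to 0.74) between KO and set 2, neither past the test.

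Hoxa5, a gene of the neck and upper thorax, was measured by a pair of probe sets that disagreed. The first, whose name marks possible cross-hybridization, passed the limit on all 15 arrays. Its signals were 69.9, 64.0 and 74.4 in WT mandibular, 47.6, 31.5 and 67.4 in the mutant, 32.2, 42.4 and 76.4 in set 1, 95.4, 87.7 and 96.5 in set 2, and 93.1, 86.8 and 73.1 in KO. The second, not so marked, passed on 0 of 15 arrays, with signals from 1.05 to 13.8. Hoxa5 therefore counts as above background only through a probe set that may read other RNAs, which was not tested.

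On the cross-hybridizing Hoxa5 probe set, set 2 was highest at 93.2 ± 4.77, above KO at 84.3 ± 10.2 and WT mandibular at 69.4 ± 5.26, and set 1 (50.3 ± 23.1) lay beside the mutant (48.8 ± 18.0). The signals of the other probe set were all below background, so its groups have no order. Its difference between KO and set 2 was 0.35 on the log2 scale (0.11 to 0.59), with an adjusted p of 0.296 from limma.

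Hoxc6, a gene of the thorax, was above background in the Dlx5/6 mutant and set 1 on 1 of its 3 probe sets. Its signals there were 32.8, 50.7 and 26.7 in the mutant and 25.8, 36.9 and 31.4 in set 1. They were 21.0, 14.0 and 30.8 in WT mandibular, 27.0, 21.7 and 3.18 in set 2, and 2.59, 41.1 and 25.5 in KO, so 1 or 2 arrays of each of these groups also passed. The groups overlapped in every comparison, and 10 of 15 arrays passed in all. Its cross-hybridizing probe set passed on 8 arrays and the last probe set on 1, in neither case on all arrays of a group.

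**Figure D2:**
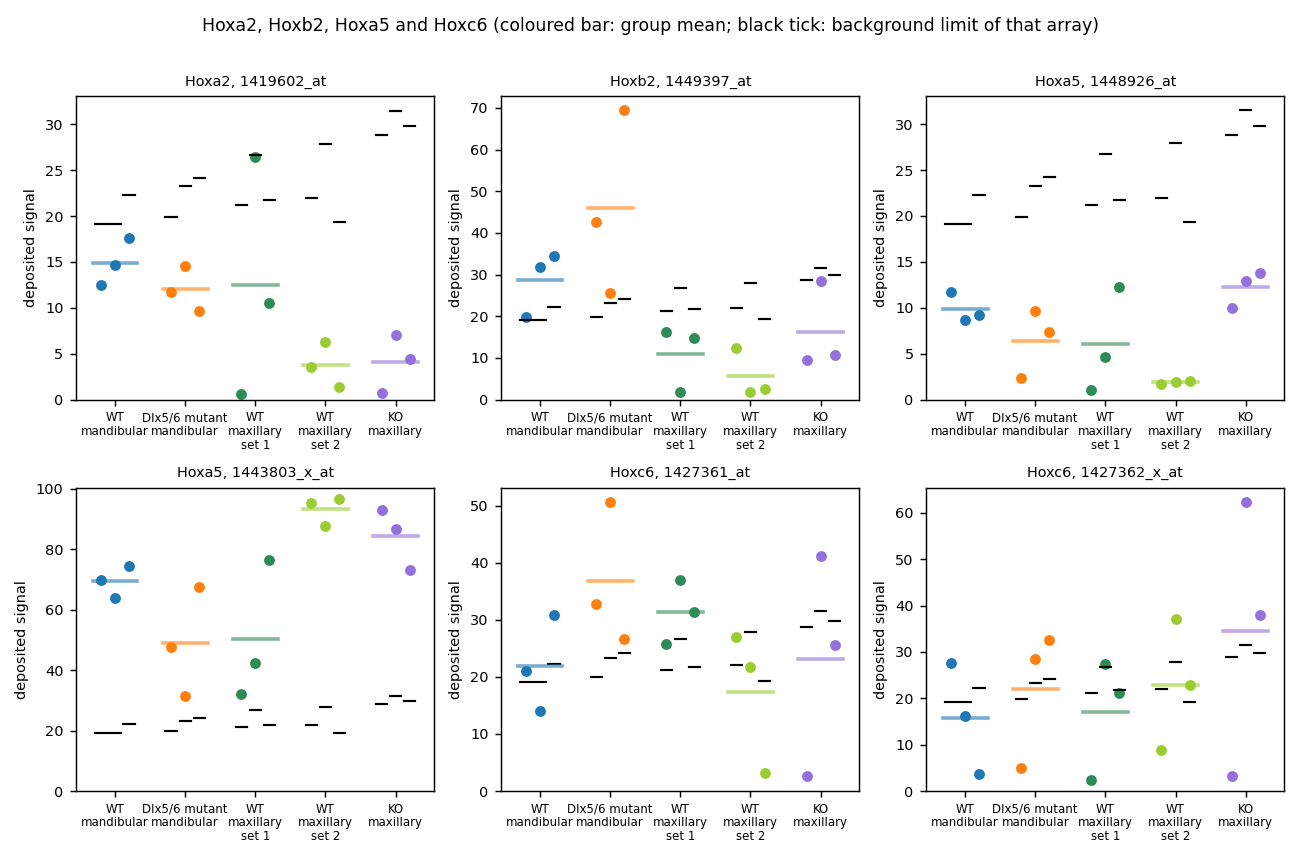
Points give the deposited signal (linear axis) of Hoxa2, Hoxb2, Hoxa5 and Hoxc6 on each of 3 arrays in 5 groups, the coloured bars the group means and the black ticks each array's background limit. Hoxb2 passes its limit on the 6 mandibular arrays and on none of the 9 maxillary arrays, while the Hoxa5 probe sets disagree on all 15. The Hoxb2 signal of KO replicate 2, under a limit of 31.5, lies above those of WT mandibular replicate 1 and mutant replicate 2.

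Hoxa9, a posterior gene of the lower trunk, came nearest to the rule among the genes that failed it, and was picked here after its values were seen. Of its 2 probe sets 1 passed on 7 of 15 arrays, with signals of 39.0, 22.3 and 18.1 in WT mandibular, 32.1, 35.1 and 9.06 in the mutant and 27.8, 41.4 and 11.1 in set 1. They were 20.4, 11.5 and 24.9 in set 2 and 17.1, 25.8 and 15.1 in KO. In WT mandibular, the mutant and set 1, 2 of 3 arrays passed, in set 2 only 1 and in KO 0, and all groups overlapped. The other passed on 0 arrays.

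Noncoding genes of the clusters were measured by 5 probe sets of Hoxa11os, Hoxb5os and Hoxd3os1, transcripts that run opposite to the Hox genes. Only Hoxb5os passed in any group, in WT mandibular with signals of 22.1, 20.2 and 22.9 against limits of 19.1, 19.1 and 22.3. It passed on 1 array of the mutant, 0 of set 1, 1 of set 2 and 0 of KO. None of the 3 genes, each read by its brightest probe set, was called in the 4 comparisons. Another 3 probe sets with more than 1 Hox symbol were not assigned to a gene, and 0 of them passed in any group.

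The first comparison asked which genes differ between the wild-type branches. Between WT mandibular and set 1, 0 of 48 Hox probe sets were called at an adjusted p under 0.05 from limma, against a background of 1.67% (752 of 45037, 320 higher and 432 lower). At an unadjusted p under 0.05 there were 3 Hox probe sets (6.25%), against 10.1% of all. The arrays of the groups did not overlap for 4 Hox probe sets, Hoxb2, Hoxc9, Hoxc10 and Hoxd3, which is 8.33% against a background of 15.5%. Hoxc9, Hoxc10 and Hoxd3 are named for this after their values were seen, and none of them passed the background limit in a group. The Hox log2 changes ran from -0.29 to 0.54, with a median of 0.00 that equalled the median of all probe sets, and 23 were above and 25 below 0.

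The second comparison asked what loss of Dlx5/6 changes in the mandibular branch, and it shared the WT mandibular arrays with the first. Of 48 Hox probe sets 0 were called, against a background of 1.46% (657 of 45037, 351 higher and 306 lower). Only Hoxc10, again named after its values were seen, passed an unadjusted p of 0.05 (2.08% against 10.8%), and its signals of 1.04 to 11.8 in these groups were all below background. The arrays did not overlap for 6 Hox probe sets (12.5% against 16.3%), none of them above background. The log2 changes ran from -0.34 to 0.33 with a median of 0.03, against 0.00 for all.

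The third comparison set the KO maxillary branch against set 2. Of 48 Hox probe sets 0 were called, against a background of 0.495% (223 of 45037, 123 higher and 100 lower), and 3 passed an unadjusted p of 0.05 (6.25% against 8.92%). The arrays did not overlap for 3, the Hoxa5 probe set that is not cross-hybridizing, Hoxa13 and 1 of Hoxc5, none above background in either group (6.25% against 13.3%). The log2 changes ran from -0.37 to 0.35 with a median of 0.02, against 0.00 for all.

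The groups labelled as wild-type maxillary gave the only Hox call of these 4 comparisons. Between set 1 and set 2, 1 of 48 Hox probe sets was called, against a background of 4.83% (2176 of 45037), and 3 did not overlap (6.25% against 20.8%). It was the cross-hybridizing one of Hoxa5, lower in set 1 by a log2 change of -0.66 ± 0.18 (SE; -1.03 to -0.28), with an adjusted p of 0.0393 from limma. The call was lost when any 1 of 5 arrays was left out, with an adjusted p of 0.167 without set 1 replicate 1, 0.139 without set 1 replicate 2, and 0.107, 0.0802 and 0.111 without set 2 replicates 1, 2 and 3. The dap spike-in control, and the sensory neuron markers given below, differed between these groups as well, and their part in the result was not tested.

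**Figure D3:**
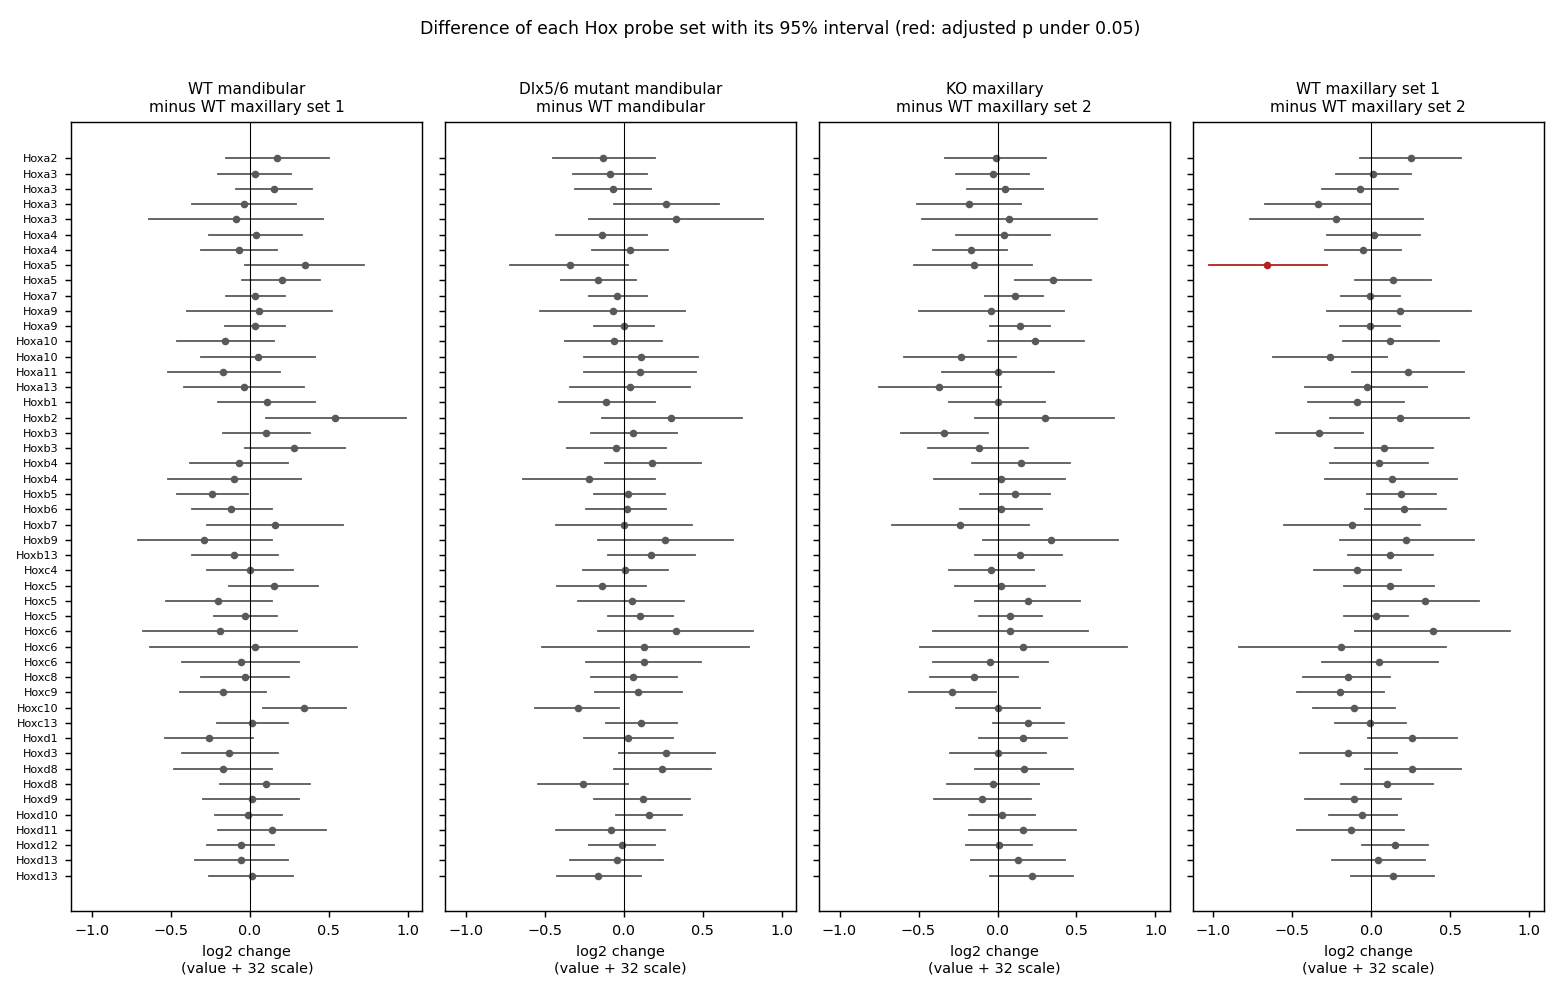
Each point is the log2 change of 1 of the 48 Hox probe sets (x axis, log2(signal + 32) scale) with its 95% interval in 1 of 4 comparisons, and red marks an adjusted p under 0.05. Only the cross-hybridizing Hoxa5 probe set between set 1 and set 2 is red, at -0.66.

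How large a change these arrays could have missed is given by the intervals. Over the 48 Hox probe sets the 95% intervals reached from -0.71 to 0.99 in the first comparison, from -0.72 to 0.88 in the second and from -0.75 to 0.82 in the third. Adding 32 before the logarithm shrinks log2 changes of dim genes, so a larger fold change below background would appear small here. The median SE was 0.143 for Hox probe sets and 0.145 for all, on 10 residual degrees of freedom.

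Most cofactor genes of Hox proteins were above background. Of the 8 cofactor genes measured, 7 were above background in all 5 groups, as were 53.2% of all named genes, namely Meis1, Meis2, Meis3, Pbx2, Pbx3, Pknox1 and Pknox2, and Pbx4 was in none. The Pbx and Pknox genes encode homeodomain partners that bind beside Hox proteins, and the Meis genes encode homeodomain proteins that bind DNA with both. Called cofactor genes were 2 of 8 in the first comparison (1 higher, 1 lower), 2 of 8 in the second and 1 of 8 in the third, against 1.67%, 1.46% and 0.495% of all probe sets, with each gene read by its brightest probe set that was not cross-hybridizing.

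Meis1 was highest in the WT mandibular branch. Its signals on the first of 2 called probe sets were 321, 285 and 319 in WT mandibular, 129.5, 164 and 172 in the mutant and 161, 193 and 181 in set 1. They were 151, 175 and 195 in set 2 and 181, 181 and 179 in KO. The 3 WT mandibular arrays stood above the other 12. Meis1 was higher in WT mandibular than in set 1 by 0.69 ± 0.10 (adjusted p 4.3e-04 from limma) and lower in the mutant than in WT mandibular by a log2 change of -0.84 ± 0.10 (adjusted p 5.9e-05 from limma). The next probe set gave 0.59 ± 0.13 and -0.80 ± 0.13, both called, and the last was dim and not called. KO and set 2 differed by 0.04 ± 0.10 (-0.17 to 0.26).

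Meis2 was lowest in the WT mandibular branch on its called probe set. Its signals there were 889, 862 and 905 in WT mandibular, 1192, 1097 and 1125 in the mutant and 1068, 963 and 1062 in set 1. They were 1181, 1106 and 1128 in set 2 and 1256, 1199 and 1253 in KO. The 3 WT mandibular arrays lay below the other 12. Meis2 was higher in the mutant than in WT mandibular by 0.34 ± 0.05 (adjusted p 0.00130 from limma). It was lower in WT mandibular than in set 1 by a log2 change of -0.22 ± 0.05 (adjusted p 0.0452 from limma), a call that ended under other settings, with an adjusted p of 0.395 after shifting arrays to a common median. Its other 3 probe sets had changes of the same sign in these comparisons and were not called. On 1 of those 3 the order of the groups differed, with WT mandibular at 190.4 ± 43.1 above set 2 at 155 ± 23.3 and KO at 164 ± 4.76 (SD, n = 3).

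Because the first and second comparisons share the WT mandibular arrays, their opposite signs for Meis1 and Meis2 are not independent of each other. Pknox1 was lower in KO than in set 2 on 1 of its 3 probe sets, with signals of 104, 89.6 and 104 against 151, 152 and 179 and a log2 change of -0.59 ± 0.11 (adjusted p 0.0122 from limma). The adjusted p was 0.0785 without KO replicate 2 and 0.0900 without set 2 replicate 3. Its other probe sets changed by -0.31 and -0.14 and were not called. Pbx2 was called between set 1 and set 2 only, higher in set 1 by 0.29 (adjusted p 0.0499 from limma).

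**Figure D4:**
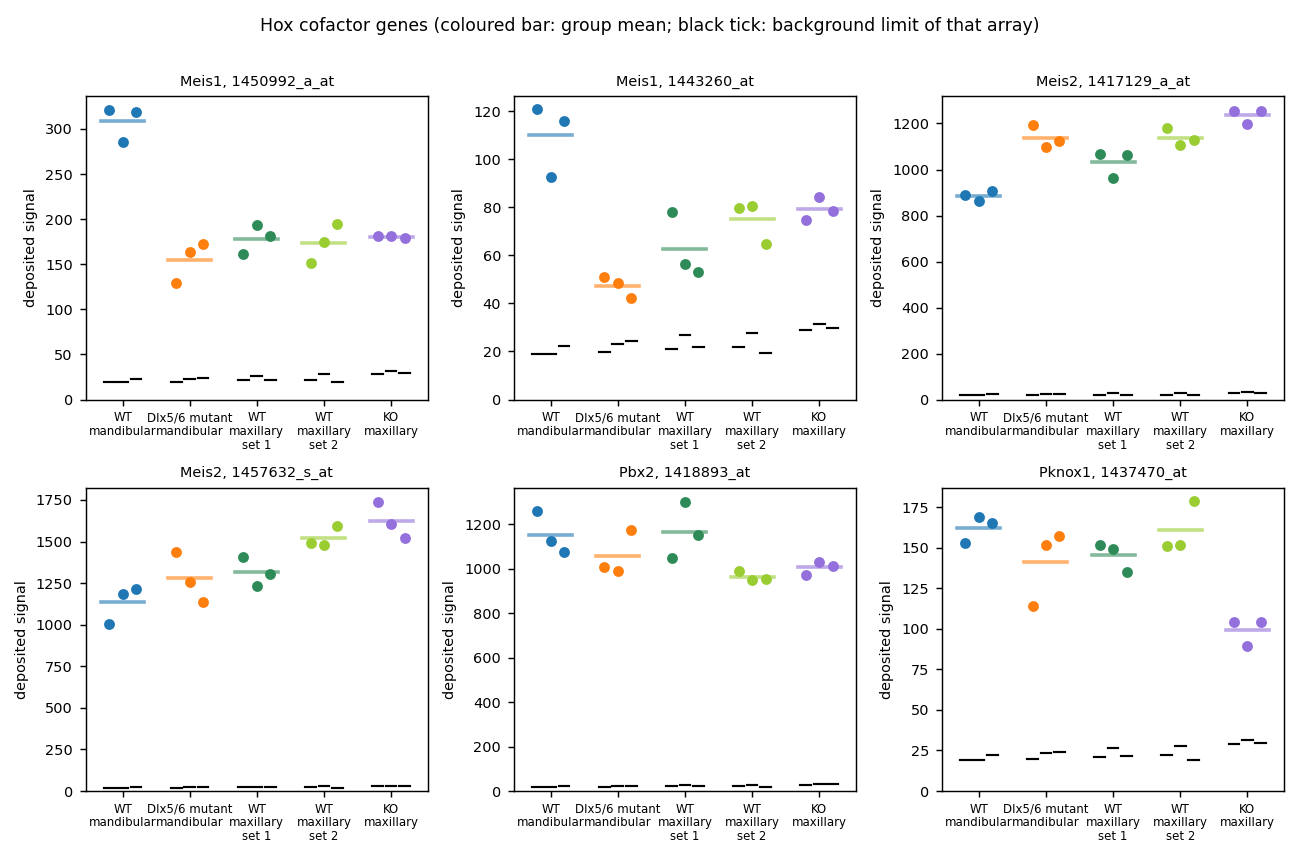
Points give the deposited signal (linear axis from 0) of cofactor probe sets on each of 3 arrays in 5 groups, with coloured bars for group means and black ticks for background limits. Meis1 is highest and the called Meis2 probe set lowest on the 3 WT mandibular arrays, and every point shown lies above its limit.

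Regulators of the clusters were partly present. Of 14 measured genes listed as regulators of Hox genes or of retinoic acid, 9 were above background in some group, beside 62.6% of all named genes. Cdx1, Cdx2 and Cdx4, which activate trunk Hox genes, Egr2, which acts in the hindbrain, and Otx2, a gene of the forebrain and midbrain, were in none. In the first comparison 1 was higher and 2 were lower in WT mandibular, in the second 1 rose and 1 fell in the mutant, and in the third 1 rose in KO, against 1.67%, 1.46% and 0.495% of all probe sets called. Cyp26a1, which degrades retinoic acid, had mean signals of 68.2 ± 7.43 in WT mandibular, 278 ± 9.83 in the mutant, 157 ± 6.23 in set 1, 149.8 ± 9.00 in set 2 and 265 ± 18.6 in KO (SD, n = 3). It rose by 1.62 ± 0.09 in the mutant (adjusted p 1.4e-09 from limma) and by 0.71 ± 0.09 in KO (adjusted p 2.3e-04 from limma), and was lower in WT mandibular than in set 1 by a log2 change of -0.90 ± 0.09 (adjusted p 2.8e-06 from limma).

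Rarb, a retinoic acid receptor, was lower in WT mandibular than in set 1, at 159 ± 18.1 against 314 ± 16.1 (log2 change -0.86 ± 0.08, adjusted p 1.7e-06 from limma). Gbx2, a homeobox gene of the anterior hindbrain, was at 181 ± 9.78 in WT mandibular, 14.7 ± 11.4 in the mutant and 7.25 ± 4.44 in set 1 (SD, n = 3), and only its WT mandibular signals passed as a group. With the dim signals taken at no less than their limits, Gbx2 was at least 7.85-fold higher in WT mandibular than in set 1 and at least 7.88-fold higher than in the mutant, where 1 of 3 arrays passed (adjusted p 3.3e-08 and 2.2e-07 from limma). In the 3 comparisons with these changes 0 Hox probe sets were called. Hoxb2 was called when set 2 replaced set 1 as control of WT mandibular, beside 2775 of all 45037 probe sets, as given above.

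Polycomb and MLL genes encode the complexes that silence and activate the clusters. Of 26 measured, 25 were above background in all 5 groups, beside 53.2% of all named genes, and Cbx7 was in none. In the first comparison 1 was called, beside 1.67% of all probe sets. This was Jarid2, a Polycomb partner, lower in WT mandibular by a log2 change of -0.31 (adjusted p 0.0461 from limma). That call was lost when any 1 array but WT mandibular replicate 1 was left out, at an adjusted p of 0.0889 to 0.229. It was also lost after shifting arrays to a common median, at an adjusted p of 0.187. With set 2 as control the log2 change was -0.06 (adjusted p 0.770 from limma). In the second comparison and in that of KO with set 2, 0 of 26 were called, beside 1.46% and 0.495% of all probe sets. Between set 1 and set 2, where 4.83% of all probe sets were called, Cbx6 was higher in set 1 by 0.62 (adjusted p 0.0456 from limma). Rnf2 was lower in set 1 by a log2 change of -0.44 (adjusted p 1.0e-03 from limma), and both encode Polycomb subunits. The Cbx6 call was lost without set 1 replicate 2 or 3 or set 2 replicate 2 or 3, at an adjusted p of 0.0906 to 0.193. Of 12 other homeobox genes of the body axis and the ParaHox group, 3 were above background in some group, beside 62.6% of all named genes. Among them Emx2, a gene of the forebrain, was at 29.9 ± 6.86 in KO and 125 ± 26.9 in set 2 (SD, n = 3), at least 3.85-fold lower with KO, where 1 of 3 arrays passed, taken at no less than its limits (adjusted p 6.4e-05 from limma). Otx1, another homeobox gene of the forebrain, was called lower in WT mandibular than in set 1 (adjusted p 0.0191 from limma), with only 1 of those 6 arrays above its limit, and the call was lost when any 1 array but set 1 replicate 3 was left out, at an adjusted p of 0.0519 to 0.112.

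Genes beside the clusters were measured as well. The 3 nearest protein-coding genes on each side of each cluster were taken by RefSeq position, 24 in all, and 22 were measured. Of these, 14 were above background in all 5 groups, as were 53.2% of all named genes, and 3 in none, namely Evx1, Calcoco2 and Skap1. RefSeq listed no protein-coding gene other than Hox genes inside the clusters, which lie on chromosomes 6, 11, 15 and 2. Skap2, beside the Hoxa cluster, ranged from 55.4 to 104, Smug1, beside the Hoxc cluster, from 111 to 146, and Mtx2, beside the Hoxd cluster, from 796 to 998 over the 15 arrays. Hibadh, a mitochondrial enzyme gene in the Hoxa neighbourhood, was the only neighbour called in the first and second comparisons. In these 1.67% and 1.46% of all probe sets were called, and Hibadh was called on 1 of its 2 probe sets. There it was at 414 ± 11.3 in WT mandibular, 322 ± 25.2 in the mutant, 302 ± 15.5 in set 1, 373 ± 6.53 in set 2 and 374 ± 26.5 in KO (SD, n = 3). Its log2 changes were 0.42 ± 0.07 in the first and -0.33 ± 0.07 in the second comparison (adjusted p 0.00278 and 0.0287 from limma), and 0.12 (adjusted p 0.475) with set 2 in place of set 1. The second call was lost when any 1 array but mutant replicate 2 was left out, at an adjusted p of 0.0656 to 0.136. Of the 22 neighbours 0 were called between KO and set 2, beside 0.495% of all probe sets. Hibadh and Cbx1 were called between set 1 and set 2, beside 4.83% of all probe sets. Evx1 and Evx2, homeobox genes at the posterior ends of the Hoxa and Hoxd clusters, were dim, at 1.72 to 20.5 and 8.29 to 41.7.

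**Figure D5:**
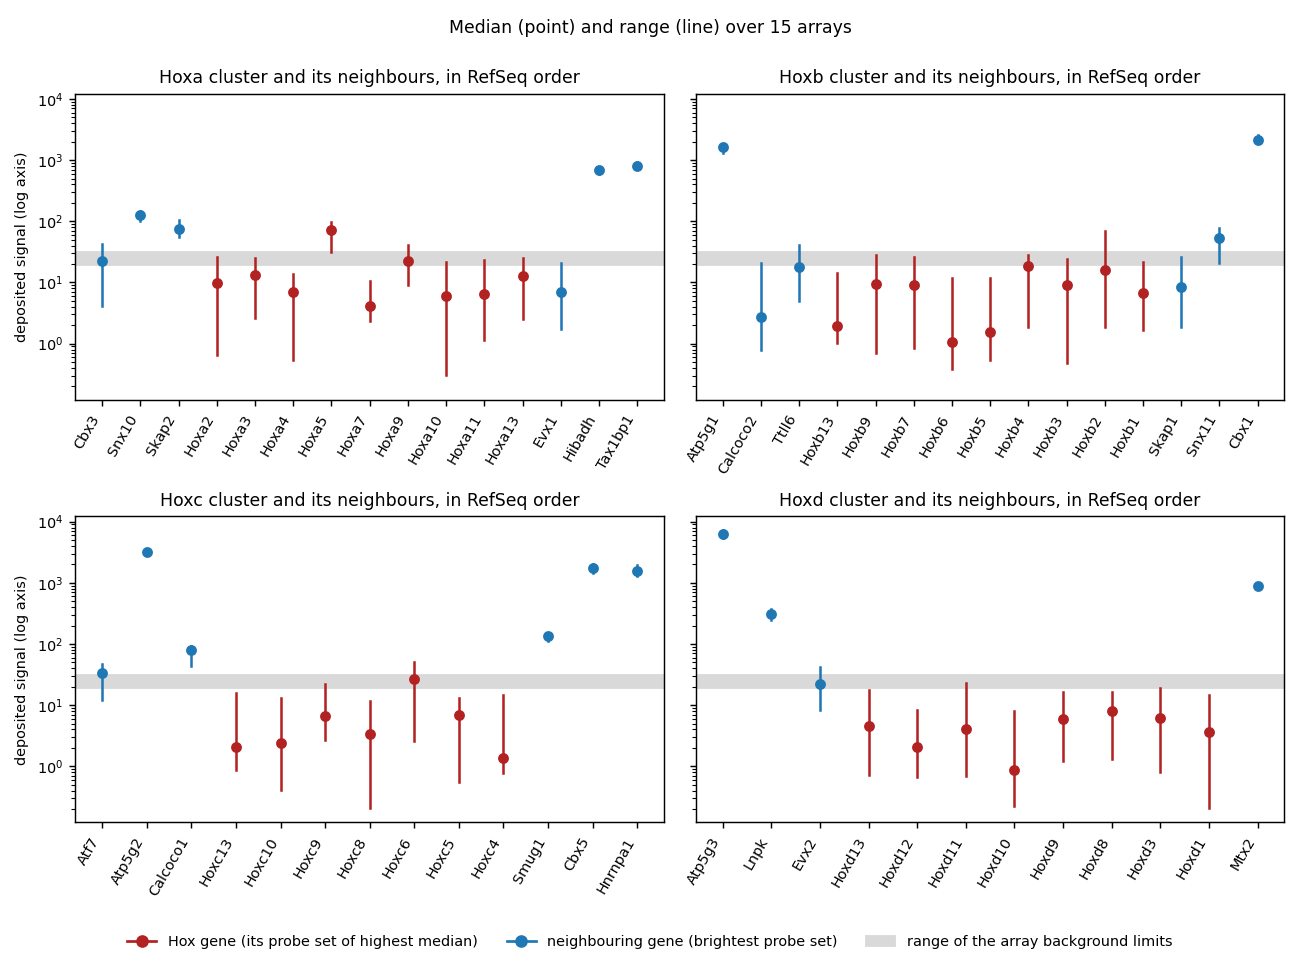
Points give the median and lines the range of the deposited signal (log axis) over 15 arrays for Hox genes (red) and their measured neighbours (blue) in RefSeq order along each cluster, with the range of background limits in grey. Of the 22 neighbours 14 are above background in all 5 groups, and of the 33 Hox genes only Hoxa5 is.

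Markers of tissues that carry Hox genes were set beside the Hox values. Of the hindbrain and cranial motor neuron markers 1 of 7, Lmx1b, was above background in some group, beside 62.6% of all named genes. It passed in set 1 and set 2, with means of 36.6 and 47.7. In WT mandibular and KO, with means of 25.1 and 26.2, it passed on 2 arrays, so 0 of 7 markers passed in either mandibular group. The summed signal of the 7 markers was 45.6 to 115 in WT mandibular, 64.4 to 139 in the mutant, 62.1 to 105 in set 1, 107 to 116 in set 2 and 62.4 to 125 in KO. Phox2a, Tbx20 and Egr2 were among the 6 in no group above background. Trunk and tail mesoderm markers passed for 2 of 9 genes, Meox2 and Tbx18, with Cdx1, Cdx2, Cdx4 and Tbx6 among those in none. Their summed signal was 76.1 to 109.7 in WT mandibular, 92.2 to 136 in the mutant, 71.8 to 100.2 in set 1, 64.3 to 101 in set 2 and 121 to 181 in KO. Meox2 passed in WT mandibular and KO, with means of 28.6 and 38.5. Its means were 12.1 in set 1, 16.2 in the mutant and 16.8 in set 2. It was at least 1.22-fold higher in WT mandibular than in set 1, and was not called in any comparison. Tbx18 of this list was at 13.0 ± 5.88 in WT mandibular, 47.9 ± 5.46 in the mutant, 32.9 ± 4.79 in set 2 and 79.1 ± 15.1 in KO (SD, n = 3). It was called higher in the mutant, at least 2.37-fold (adjusted p 0.00812 from limma), and in KO by 0.74 (adjusted p 0.0420 from limma), a call that was lost when any 1 of the 6 arrays was left out, at an adjusted p of 0.0544 to 0.180.

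Limb bud markers passed for 3 of 4 genes, beside 62.6% of all named genes, with Tbx5 in none. Their summed signal was 328 to 382 in WT mandibular, 451 to 475 in the mutant, 302 to 447 in set 1, 338 to 364 in set 2 and 379.7 to 453 in KO. Tbx4 passed in WT mandibular with a mean of 28.6, and passed on 0 arrays of set 1 (17.1) and of the mutant (12.7). It was not called in any comparison. Tbx5 was called higher in WT mandibular than in set 1, at 17.3 ± 1.02 against 3.29 ± 1.95 (adjusted p 0.0381 from limma). All Tbx5 signals were below background. The call was lost when any 1 of the 6 arrays was left out, at an adjusted p of 0.0827 to 0.158. Sall4 was called higher in the mutant than in WT mandibular, at 419 ± 12.4 against 281 ± 22.4 (log2 change 0.53, adjusted p 0.00868 from limma). The part of limb bud cells in the Hox signals was not tested.

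Sensory neuron markers differed more between the groups, with 4 of 11 above background in WT mandibular, 6 in the mutant, 10 in set 1, 9 in set 2 and 8 in KO. Of all non-control probe sets, 49.9%, 48.1%, 48.5%, 47.9% and 45.2% were above background in the same order. The summed signal of the markers was 507 to 562 in WT mandibular, 567 to 647 in the mutant, 2839.7 to 2938 in set 1, 1153 to 1219.8 in set 2 and 972 to 988 in KO. In the first comparison 10 of 11 were called lower, among them the neurofilament genes Nefl and Nefm. Between the wild-type maxillary groups 9 of 11 were called higher in set 1 than in set 2, beside 4.83% of all probe sets. In KO 3 of 11 were called lower than in set 2, beside 0.495% of all. Over all probe sets 1.67% were called in the first comparison and 1.46% in the second. In the second Neurod1 was called higher, at 24.1 ± 2.36 in the mutant, where 2 of 3 arrays passed, against 6.07 ± 1.09 (adjusted p 0.0455 from limma), and this call was lost when any 1 of the 6 arrays was left out, at 0.0929 to 0.141. Blood progenitor markers, of cells that can carry Hox genes, passed for 7 of 7 genes, beside 62.6% of all named genes. Of these 0 were called in the 4 comparisons, beside 0.495% to 4.83% of all probe sets. Macrophage markers passed for 9 of 10. Csf1r was called lower in WT mandibular than in set 1 (log2 change -0.62), higher in the mutant (0.59) and higher in KO (0.59). C1qa was called lower in WT mandibular than in set 1, a call lost when any 1 of 5 of the 6 arrays was left out. Over all probe sets 1.67%, 1.46% and 0.495% were called in these comparisons. The part of neurons, blood progenitors and macrophages in the signals of Hoxa5, Hoxb2 and Hoxc6 was not tested.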

How the data were processed

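The authors deposited 1 linear intensity value per probe set and array, and the probe table gave 1 symbol for 34958 of 45101. How the scans were summarised and corrected is not given in the sources used here, but the common trimmed mean shows that the deposited values had been scaled. Per the labels' protocols the tissue was first arch, with no step of the analysis described. After removal of 64 control probe sets, values were turned into log2(value + 32) and quantile normalized, because array medians ran from 5.87 to 6.03. One limma fit (limma 3.58.1, R 4.3.3) took a mean per group over 15 arrays, with an intensity trend, and adjusted two-sided p-values by Benjamini-Hochberg over 45037 probe sets, called under 0.05. The number of arrays limits the precision. Fit and calls were tested on simulated data. Arrays within a group correlated at 0.983 to 0.991. Residuals of arrays with the same replicate number correlated at -0.15 to 0.13 over 30 pairs of arrays, so numbers were not read as pairs. The rule for named genes took Hoxa2, Hox genes above background or called, cofactors, and of each other list at most 4 called members a comparison. Of the marker lists only those set beside a Hox result are named. The members and lists were chosen with earlier results of these data known, and the neighbours by position after the Hox values were seen. Alternatives were other limits, scalings, pseudocounts, variance models, blocks, controls and left-out arrays.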

Additional observations from a re-analysis of the deposited data

How the results depend on the processing

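The count of Hox genes above background was 5 with the 90th percentile of the silent families as limit (adding Hoxa3 and Hoxa9), 1 with the 99th percentile and 1 with the array median (Hoxa5 in both). It ran from 3 to 4 when arrays of 1 replicate number were left out, and was 2 without cross-hybridizing probe sets. In the first comparison the calls over all probe sets were 452 at an adjusted p under 0.01, 452 with only the groups compared and 2775 with set 2 as control, where Hox calls were 1 (Hoxb2). Leaving out 1 array gave 537 to 601, with 0 Hox calls. In the second they were 316 at 0.01, 409 with no variance trend, 319 with only the groups compared and 382 to 505 without 1 array (382 without mutant replicate 2, 397 without replicate 3), with 0 Hox calls throughout. In the third they were 127 at 0.01, 146 with no trend, 121 with only the groups compared, 2782 with set 1 as control and 151 to 169 without 1 array, with 0 Hox calls throughout. Between set 1 and set 2 they were 961 at 0.01, 1333 with no trend and 1393 to 1691 without 1 array (1393 without set 1 replicate 2). The Hox call there was 0 at 0.01, with array weights, with no trend, with only the groups compared and without cross-hybridizing probe sets, and 0 to 1 without 1 array. With the replicate block the calls in the 4 comparisons were 703, 598, 203 and 1981, with 0, 0, 0 and 1 Hox calls, and no Hox call changed. Of 446 values of named Hox probe sets under alternatives, 436 kept their side of the threshold, 9 lost it, 1 gained it and 0 called values turned sign. All 9 losses were of the Hoxa5 call between set 1 and set 2. No other named Hox result was called as reported, so most of the 436 were never called, and 17 of the 446 values changed sign.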
